A study of Rattus norvegicus with 9 samples.

Results

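Fatty acid oxidation is the main route by which the proximal tubule of the kidney makes ATP. Long-chain fatty acids are activated to acyl-CoA by acyl-CoA synthetases, carried into mitochondria by the carnitine shuttle and shortened by repeated rounds of dehydrogenation, hydration, a second dehydrogenation and thiolysis, with the electrons of the first step passed to the respiratory chain by the electron transfer flavoproteins. Peroxisomes shorten very long and branched chains, and the kidney also makes use of ketone bodies, which are formed from and split back into acetyl-CoA.

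The 35 genes described here were chosen by name, as enzymes, carriers and regulators of these steps, from the 26115 gene names on the arrays by a rule that uses no measured value, with earlier results of these data known. All gene probes carrying one of the 35 names were taken, which gave 38 probes. The genes were put into 7 groups by role, with 12 of mitochondrial beta-oxidation, 3 electron transfer flavoproteins, 6 peroxisomal, 5 of the carnitine shuttle, 4 acyl-CoA synthetases, 3 of ketone body metabolism and 2 regulators.

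Gene expression was measured in kidneys of Fisher F344 rats, each taken after 20 min. of warm ischaemia in a model of donation after circulatory death, with 1 kidney on each Agilent array of 1 colour. The 5 control arrays are called NP, for non-perfused. The 4 MSC arrays came from kidneys that were then perfused for 4 hrs at 4°C with Belzer solution (BS) holding added mesenchymal stromal cells (MSC), grown from the bone marrow of Sprague Dawley rats transgenic for enhanced green fluorescent protein. Age and sex of the donors are not given in the sources used here. The labels are divided on the NP group, since the treatment field reads "Not perfused", as the study's methods do, while titles and descriptions name perfusion with BS alone. On the methods' reading the groups differ in perfusion as well as in MSC, and the effects of these cannot be told apart. One further MSC array, which the study discarded for quality, was not analysed here, and the values below rest on few arrays.

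The arrays lay on 2 slides, the first with NP replicates 1, 2 and 3 and MSC replicates 1 and 2, and the second with the others. Between 65.6% and 74.3% of gene spots were well above background. All values are log2 of the raw intensity after cyclic loess normalization, and a level is compared only between arrays for the same probe. The tissue carried its defining markers, since all 12 proximal tubule markers passed the filter on low values. Markers of fat stood apart on MSC replicates 3 and 4, which were the 2 brightest arrays for 8 of the 9 white or brown fat markers that passed the filter. The mean deviation of 3 red cell markers was 0.77 ± 0.52 (SD, n = 5) in NP and -0.97 ± 1.72 (n = 4) in MSC, lowest on MSC replicate 1, and the part of blood content in the differences below was not tested.

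Of the 35 genes, 33 passed the filter. Acsl6, an acyl-CoA synthetase best known from brain, was well above background on none of the 9 arrays, with values of 7.29 to 7.92. Acox3, an acyl-CoA oxidase for branched chains, was well above background on 9 arrays but its values of 8.32 to 8.58 were under the filter level of 8.69 to 8.92. Neither was tested.

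The following probes are shown because the results on Acat1 and Hadha turn on them. Sequences are those of the array, each of 60 bases from a coding stretch and written 5′ to 3′, with rn4 positions from the array files. Acat1 was read at chr8:57056663-57056722 on the minus strand, starting at base 585 of its transcript. Hadha was read by a probe starting at base 607, at chr6_random:452613-452672, and by another starting at base 1957, whose ends lie at chr6_random:467174-467737, a genomic span of 564 bases for a probe of 60, both on the plus strand.
Acat1: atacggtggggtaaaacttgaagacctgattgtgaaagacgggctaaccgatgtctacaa
Hadha, base 607: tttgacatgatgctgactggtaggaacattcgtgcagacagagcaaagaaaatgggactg
Hadha, base 1957: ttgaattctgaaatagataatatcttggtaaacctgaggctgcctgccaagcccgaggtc

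Differences between MSC and NP kidneys in fatty acid oxidation and ketone body genes were small, and for most genes they were below the SD between NP arrays. In limma, 0 of the 33 passed the threshold used here (a 1.5-fold change at an FDR of 0.05) in either direction, as did 0% of the 13856 genes tested. At an unadjusted limma p under 0.05, 3 genes were higher in MSC (Hadh, Acsl3 and Acat1), against 6.63% of all genes, and 0 were lower, against 5.12%. By their means 21 genes were higher and 12 lower, Acox2 among the latter, where 48.5% of all genes were higher. With the other probes of Hadha and Acaa1a, described below, 23 were higher and 10 lower, and without the MSC arrays with high fat markers 17 and 16. The log2 differences ran from -0.47, for Acox2, which was above the filter level on 1 MSC array and is given below as a description, to 0.41 for Cpt1b, with a median of 0.05 (1.04-fold), against -0.01 over all genes tested. In whole kidney, fewer cells of a type and less RNA in each cell cannot be told apart.

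The 95% intervals show how large a difference these arrays could have missed. For 29 of the 33 genes (87.9%) the 95% interval of the difference lay within 1.5-fold either way, as for 77.7% of all genes. The other 4 were Hadha, Acox2, Cpt1b and Acsl1, for which a difference of that size is not bounded by these arrays. The lowest FDR was 0.350, for Acat1.

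**Figure D1:**
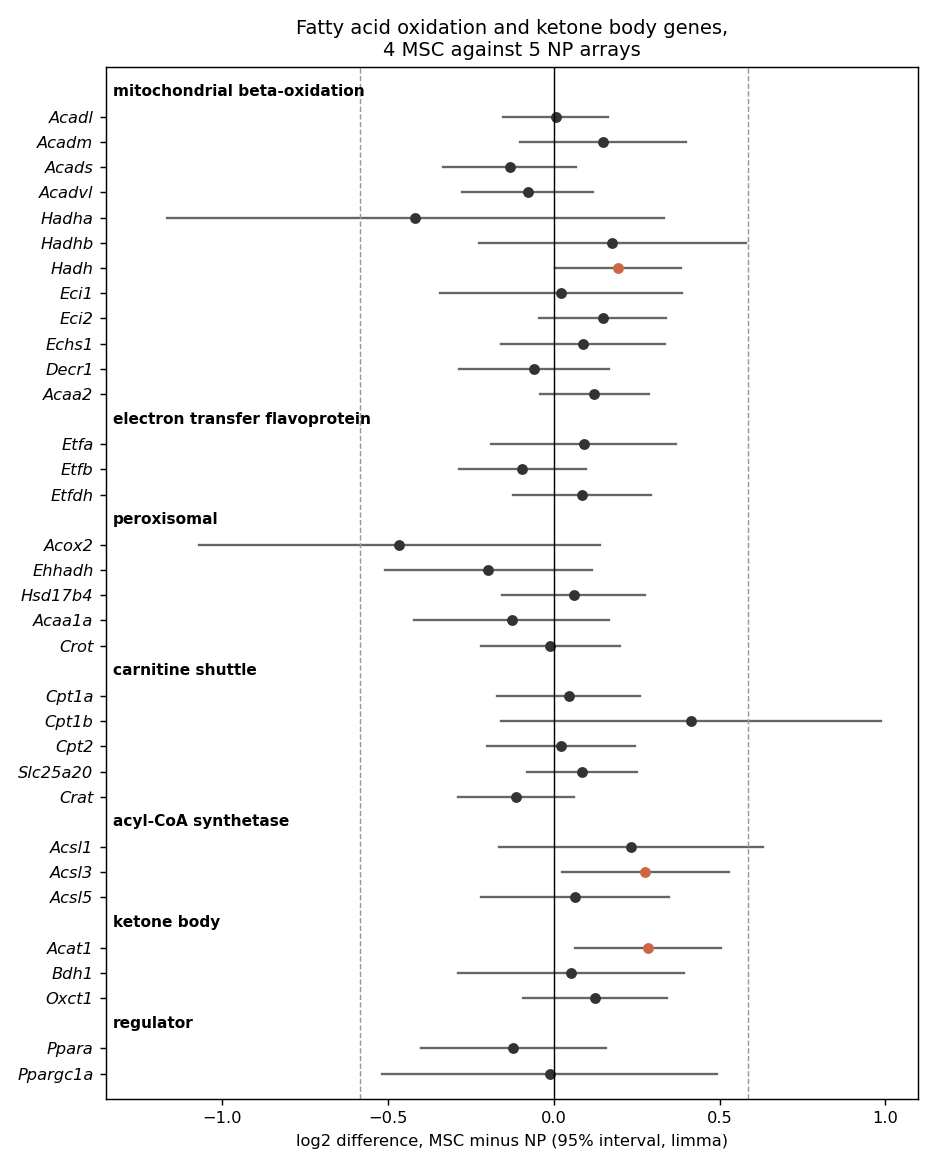
Log2 difference of MSC minus NP for the 33 genes that passed the filter, by role, with 95% intervals from limma (5 NP and 4 MSC arrays). Orange points have an unadjusted p under 0.05, dashed lines mark 1.5-fold, and the intervals of Hadha, Acox2, Cpt1b and Acsl1 cross a dashed line.

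The gene with the lowest p was one of ketone body metabolism. Acat1, the mitochondrial thiolase that joins and splits acetyl-CoA units, read 14.04, 13.96, 14.30, 14.31 and 14.25 on NP replicates 1 to 5 and 14.59, 14.45, 14.45 and 14.34 on MSC replicates 1 to 4. Every MSC array was above every NP array, with MSC replicate 4 the closest to the NP range. It was the only one of the 33 genes whose groups did not overlap in this direction, against 3.14% of all genes, and 0 did so in the other, against 2.14%. The difference was 0.28 ± 0.10 (SE), or 1.22-fold, with a limma p of 0.0170 and an FDR of 0.350. An exact two-sided permutation test gave p = 0.0238, where the smallest p that 5 against 4 arrays allow is 0.00794. Within the first slide the difference was 0.42 and within the second 0.11, and it was 0.28 with slide as a block. The unadjusted p was under 0.05 in 21 of 25 alternatives, and 0.263 with median scaling. Acat1 has a single probe, so the alternatives in filter and probe choice could not change its difference, which stayed at 0.28.

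Oxct1, which activates ketone bodies for use outside the liver, had a mean of 16.43 ± 0.16 (SD, n = 5) in NP and 16.56 ± 0.10 (n = 4) in MSC. Its difference of 0.13 was 0.26 on the first slide and -0.04 on the second. Bdh1, which interconverts acetoacetate and hydroxybutyrate, differed by 0.05 with an SE of 0.15. Neither difference exceeded the SD between NP arrays, which was 0.25 for Bdh1, though that of Oxct1 was above its SD in MSC.

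Mitochondrial beta-oxidation held 8 genes with a higher mean in MSC and 4 with a lower one, and the median of the 12 differences was 0.05. With the other Hadha probe these were 9, 3 and 0.11, without MSC replicates 3 and 4 they were 6, 6 and 0.02, and without NP replicate 2 they were 7, 5 and 0.0021. Hadh, the dehydrogenase of short-chain 3-hydroxyacyl-CoA, read 17.32, 17.07, 17.24, 17.20 and 17.40 on the NP arrays and 17.40, 17.36, 17.49 and 17.50 on the MSC arrays. The groups overlapped at NP replicate 5 and MSC replicates 1 and 2, and MSC replicates 3 and 4, the arrays with high fat markers, were the highest. Its difference of 0.20 ± 0.09 (SE) had a limma p of 0.0453, an FDR of 0.419 and an exact permutation p of 0.0397. Without MSC replicates 3 and 4 it was 0.14, with a limma p of 0.267, and with median scaling it was 0.10, with a limma p of 0.547. The p was under 0.05 in 10 of 25 alternatives. Hadh too has a single probe, so that those in filter and probe choice could not change its difference.

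The 4 acyl-CoA dehydrogenases, which take the first step for chains of different length, had intervals within 1.5-fold. Acadl, for long chains, ranged over only 0.18 across all 9 arrays, and its difference was 0.01 with a 95% interval of -0.15 to 0.16. Acadm, for medium chains, differed by 0.15, Acads, for short chains, by -0.13, and Acadvl, for very long chains, by -0.08. Their limma p-values ran from 0.170 to 0.938.

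Next in the spiral, Echs1, which hydrates the chain, differed by 0.09, and Acaa2, the thiolase that ends a round, by 0.12. Eci1, Eci2 and Decr1, which prepare unsaturated chains, differed by 0.02, 0.15 and -0.06. None of these 5 differences was larger than 2 SE, and their limma p-values were 0.119 or more. The difference was above the SD between arrays in both groups for Acaa2 (0.08 in NP and 0.07 in MSC) and Eci2 (0.14 and 0.03).

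Hadha and Hadhb encode the subunits of the mitochondrial trifunctional protein, which takes long chains through the last 3 steps of a round. The more variable Hadha probe, at base 607, was kept for the gene by the study's rule, and its values were 13.06, 14.90, 13.85, 13.62 and 13.45 in NP and 13.05, 13.62, 12.98 and 13.80 in MSC. NP replicate 2 was far above the rest and the groups overlapped. The difference was -0.42 ± 0.34 (SE), with an FDR of 0.645 in limma and an exact permutation p of 0.365. Without NP replicate 2 it was -0.14.

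The second Hadha probe, at base 1957, gave the opposite sign. It read 13.32, 13.09, 13.35, 13.53 and 13.54 in NP and 13.50, 13.45, 13.61 and 13.76 in MSC. Here NP replicate 2 was the lowest array and the groups overlapped. The difference was 0.21 ± 0.11 (SE), with a limma p of 0.0843 over probes and an exact permutation p of 0.103. The direction of Hadha therefore depended on the probe.

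Hadhb read 12.98, 11.95, 12.57, 12.59 and 12.57 in NP and 12.86, 12.59, 12.86 and 12.52 in MSC, with a difference of 0.18 (FDR of 0.726, limma), which was 0.03 without NP replicate 2. Over the 9 arrays, Pearson's r of Hadhb was -0.975 with the Hadha probe at base 607 and 0.465 with that at base 1957, and the Hadha probes had an r of -0.548 with each other. Without NP replicate 2 the first was -0.921 over 8 arrays, while the others turned, to -0.359 and 0.139. These are descriptions of arrays that share kidney, slide and hybridization. The Hadhb value is the mean of 10 spots, that of the Hadha probe at base 1957 of 2, and that of the probe at base 607 is from 1 spot.

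**Figure D2:**
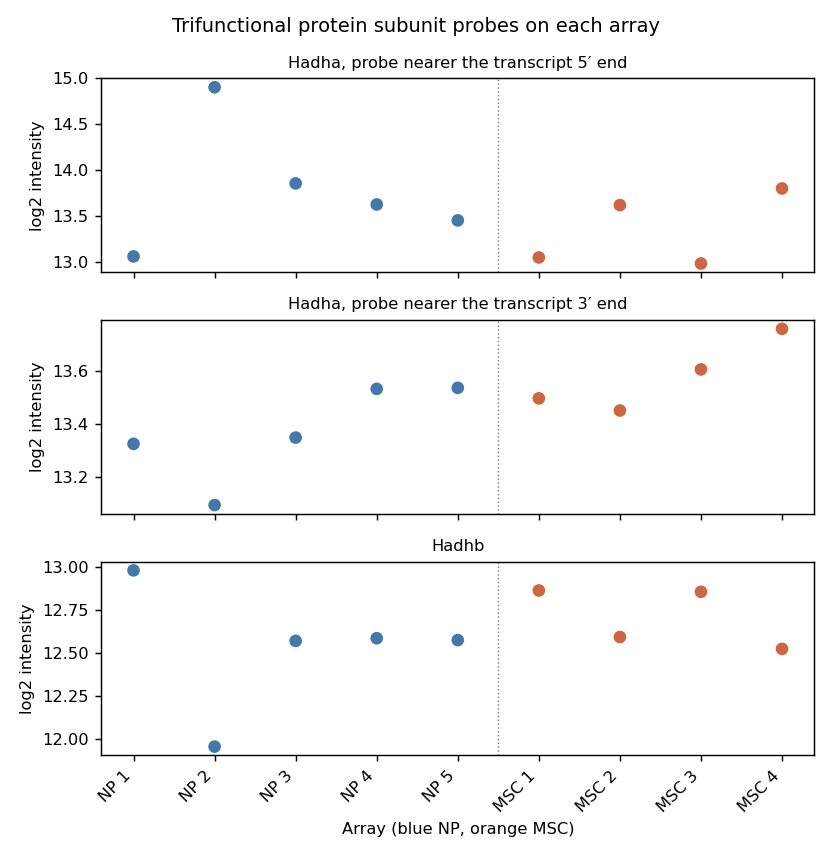
Log2 intensity of the 2 Hadha probes (base 607 above, base 1957 in the middle) and of Hadhb (below) on each of the 9 arrays, each panel on its own scale. NP 2 is the highest array for the first probe, at 14.90, and the lowest for the other Hadha probe and for Hadhb, at 13.09 and 11.95.

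Of the electron transfer flavoproteins, Etfa and Etfb form the soluble carrier and Etfdh passes its electrons to ubiquinone. Etfb read 16.99, 17.24, 17.24, 17.09 and 17.02 in NP and 16.93, 17.01, 17.00 and 17.14 in MSC. The groups overlapped over most of their range, and the difference was -0.09 ± 0.09 (SE), with an exact permutation p of 0.198, being -0.19 on the first slide and 0.02 on the second. Etfa and Etfdh differed by 0.09 and 0.09, with limma p-values of 0.486 and 0.381, and Etfa by 0.26 on the first slide and -0.13 on the second.

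Of the 5 peroxisomal genes that passed, 4 had a lower mean in MSC and the median difference was -0.13, which is the value of Acaa1a. The 4 include Acox2, whose direction is tied to its passing the filter mainly through NP arrays, beside Ehhadh, Acaa1a and Crot. The median includes it as well. With the other Acaa1a probe 3 were lower and the median was -0.01, without NP replicate 4 these were 3 and -0.03, and without MSC replicates 3 and 4 they were 4 and -0.22. Acox2, an oxidase for branched chains and bile acid intermediates, read 9.07, 8.84, 10.23, 9.38 and 8.67 in NP and 8.88, 8.86, 8.66 and 8.67 in MSC. NP replicate 3 stood alone at the top. The gene passed the filter mainly through the NP arrays, being above the filter level on 4 of the 5 NP and on 1 of the 4 MSC arrays. Its difference of -0.47 is therefore given as a description. It was -0.22 without NP replicate 3, -0.61 without NP replicate 5 and -0.79 with the processed signal, from which Agilent's software has subtracted the background.

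Ehhadh, the peroxisomal bifunctional enzyme, had a mean of 13.59 ± 0.25 (SD, n = 5) in NP and 13.40 ± 0.18 (n = 4) in MSC, with a limma p of 0.188. Hsd17b4, which carries out the same steps for branched chains, differed by 0.06, and Crot, which hands shortened chains on as carnitine esters, by -0.01.

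Acaa1a, the peroxisomal thiolase, was kept with a probe whose accessions include those of its near-identical copy Acaa1b. It read 16.79, 16.80, 16.89, 17.37 and 17.12 in NP and 16.80, 16.75, 17.06 and 16.86 in MSC. Another probe, which carries Acaa1a accessions alone, read 17.03, 16.71, 16.91, 17.00 and 17.06 in NP and 16.98, 16.96, 17.10 and 16.95 in MSC. The groups overlapped on both probes. The difference was -0.13 on the first and 0.06 on the second, with exact permutation p-values of 0.405 and 0.563, so that its sign too depended on the probe.

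Carnitine shuttle genes had a median difference of 0.05, with 4 higher and 1 lower by the mean. Without MSC replicates 3 and 4 these were -0.01, 2 and 3, and without NP replicate 3 the median was 0.01. Cpt1b, the outer membrane carnitine palmitoyltransferase of muscle and brown fat, read 13.16, 12.14, 12.09, 11.89 and 12.49 in NP and 12.30, 12.67, 13.07 and 13.04 in MSC. NP replicate 1 was the highest array and MSC replicates 3 and 4 came next, so that the groups overlapped. A second Cpt1b probe, starting at base 678, was well above background on 1 array only, at 7.96 to 8.20, and was not tested. The difference of 0.41 ± 0.26 (SE) was the highest of the 33 genes, with an FDR of 0.546 in limma and an exact permutation p of 0.198. It was 0.02 within the first slide and 0.86 within the second, which held both MSC arrays with high fat markers.

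Ucp1, the uncoupling protein that defines brown fat, read 9.91, 8.91, 11.07, 8.22 and 8.14 in NP and 7.99, 8.48, 14.35 and 12.92 in MSC. Adipoq, the adipocyte hormone adiponectin, was at 10.44 to 11.67 in NP and at 10.92, 11.78, 13.83 and 12.63 in MSC. Without MSC replicates 3 and 4 the difference in Cpt1b was 0.13, with a limma p of 0.692, and without NP replicate 1 it was 0.62, with a limma p of 0.00943 and an FDR of 0.193. On NP replicate 1, the highest array for Cpt1b, Adipoq had its highest NP value, while Ucp1 was highest in NP on replicate 3, where Cpt1b was at 12.09. Of 8 skeletal muscle markers 1 passed the filter, myoglobin (Mb), at 9.33 to 9.52. The part of fat or muscle in the values of Cpt1b was not tested further.

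**Figure D3:**
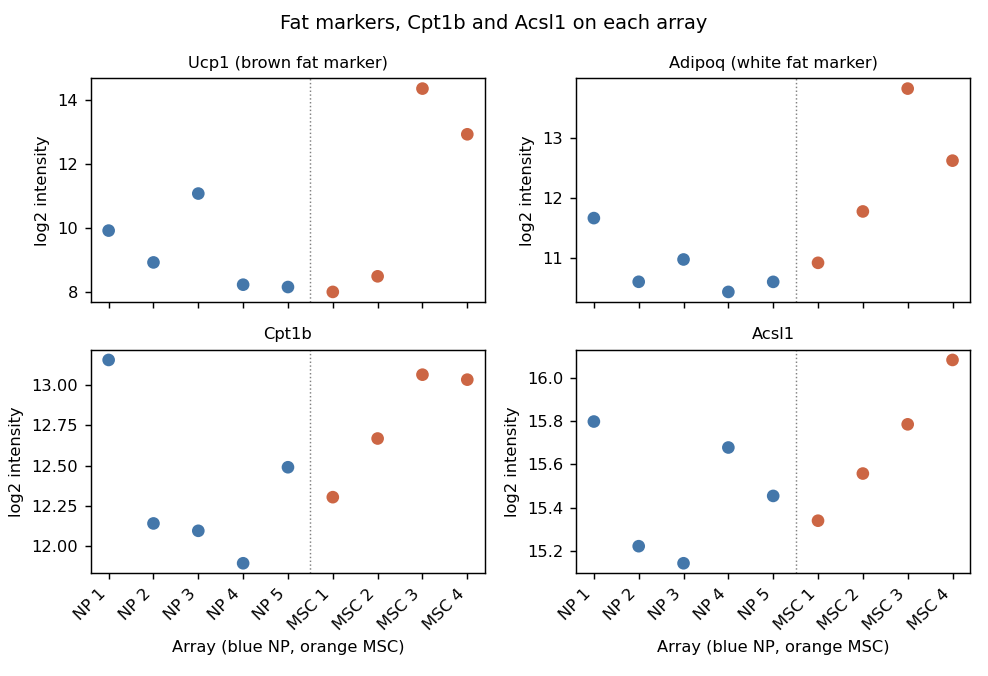
Log2 intensity of the brown fat marker Ucp1, the white fat marker Adipoq, Cpt1b and Acsl1 on each of the 9 arrays, each panel on its own scale. Ucp1 and Adipoq are highest on MSC 3 and MSC 4, and Cpt1b is highest on NP 1, at 13.16, followed by MSC 3 and MSC 4.

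Cpt1a, the carnitine palmitoyltransferase of liver and kidney, differed by 0.05 with a 95% interval of -0.17 to 0.26. Cpt2, its counterpart at the inner membrane, differed by 0.02, and the carrier Slc25a20 between them by 0.09. Crat, which acts on acetyl-CoA and short chains, differed by -0.11. The differences of these 4 genes had limma p-values of 0.177 or more, and their intervals lay within 1.5-fold.

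All 3 acyl-CoA synthetases that passed had a higher mean in MSC, with a median of 0.23. Without MSC replicates 3 and 4, with their high fat markers, 1 was higher and 2 lower, and the median was -0.01. Acsl3, which serves lipid droplets and the endoplasmic reticulum, read 12.02, 12.11, 12.53, 12.22 and 12.13 in NP and 12.60, 12.50, 12.30 and 12.51 in MSC. NP replicate 3 lay among the MSC values and the other 4 NP arrays below them. The difference was 0.28 ± 0.11 (SE), or 1.21-fold, with a limma p of 0.0350, an FDR of 0.401 and an exact permutation p of 0.0635. It was 0.33 on the first slide and 0.23 on the second. The unadjusted p stayed under 0.05 on leaving out single arrays in 2 of 9 cases. Acsl1, the synthetase most abundant in fat, heart and liver, read 15.80, 15.22, 15.14, 15.68 and 15.45 in NP and 15.34, 15.56, 15.79 and 16.08 in MSC. Its difference of 0.23 (limma p of 0.223) was 0.06 on the first slide, 0.37 on the second and -0.01 without MSC replicates 3 and 4. Acsl5, found at the outer mitochondrial membrane, differed by 0.06.

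**Figure D4:**
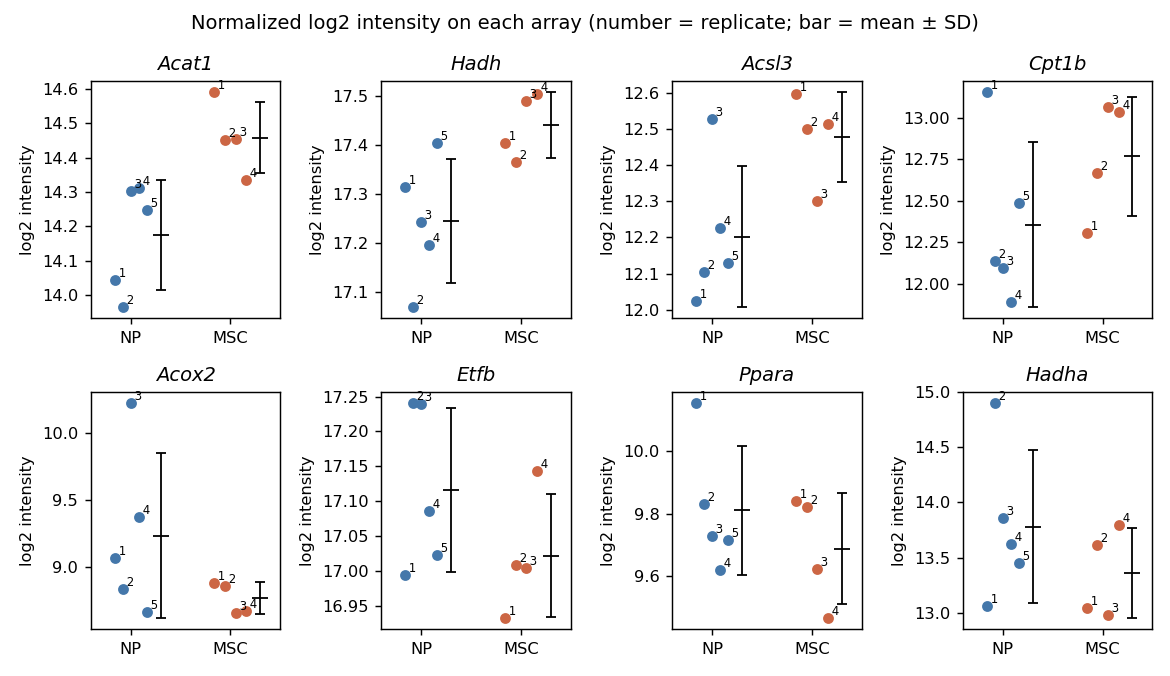
Normalized log2 intensity of 8 genes on each array, with NP in blue and MSC in orange, the replicate number beside each point and the mean ± SD of each group as a black bar. Only for Acat1 do the groups not overlap, and single arrays stand far from their group for Acox2 (NP 3, 10.23) and Hadha (NP 2, 14.90).

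Both regulators had a lower mean in MSC, and both a higher one when MSC replicates 3 and 4 were left out. Ppara, the nuclear receptor that drives transcription of many of these enzymes, read 10.15, 9.83, 9.73, 9.62 and 9.72 in NP and 9.84, 9.82, 9.62 and 9.47 in MSC. The groups overlapped, and the difference was -0.12 ± 0.13 (SE), with an FDR of 0.725 in limma and an exact permutation p of 0.437. It was -0.04 without NP replicate 1, 0.02 without MSC replicates 3 and 4, and 0.01 with array weights. Ppargc1a, the coactivator of mitochondrial biogenesis, varied far more between arrays, from 9.72 on NP replicate 1 to 10.92 on NP replicate 2, and differed by -0.01 with an SE of 0.23.

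The 33 genes also varied between kidneys of the same group. NP replicate 2 was the lowest array for 14 of them (42.4%), against 19.7% of all genes. The same held for 27 of the 59 other pathway genes described below (45.8%). Those among the 33 included 7 of the 12 mitochondrial beta-oxidation genes, 2 of the 3 electron transfer flavoproteins and 2 of the 3 ketone body genes. It was also the highest array for 5 genes, which were Acads, Hadha, Etfb, Crat and Ppargc1a. Without this array the median difference of the 33 genes was 0.00318. The difference of Acadm was then 0.07, that of Echs1 0.001, that of Etfa 0.01, that of Etfdh 0.03, that of Oxct1 0.06 and that of Hsd17b4 0.0021. Eci1, Cpt2 and Acsl5 were then lower by the mean in MSC and Ppargc1a higher.

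For most of these genes MSC arrays lay closer together. The SD between arrays was smaller in MSC than in NP for 32 of the 33 genes, the exception being Acsl1, against 73.9% of all genes. The median SD over the 33 genes was 0.10 in MSC and 0.17 in NP. No test was made of this difference in spread. The study had discarded a further MSC array for quality but no NP array, and the part of this in the spread was not tested.

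**Figure D5:**
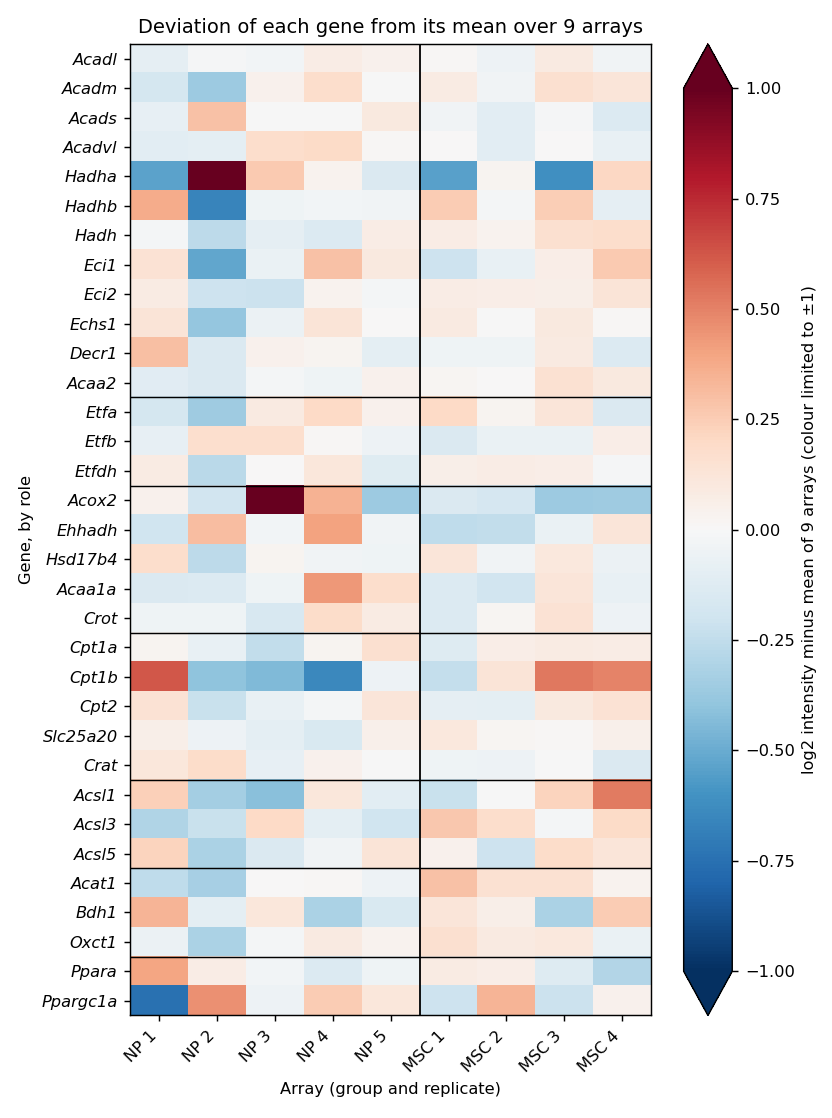
Deviation of each of the 33 genes from its own mean over the 9 arrays, in log2 intensity, with genes in rows by role and arrays in columns (colour limited to 1 either way). Blue cells, below the mean, gather in the NP 2 column, where 14 genes have their lowest value.

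Other genes of the pathway were taken in 6 lists, covering uptake, mitochondrial and peroxisomal oxidation, thioesterases, ketone bodies and targets or partners of the PPAR receptors. Of 66 genes, 59 were tested, 35 had a higher mean in MSC and 24 a lower one, and the median was 0.06. At an unadjusted limma p under 0.05, 5 were higher (8.47%, against 6.63% of all genes) and 0 lower, and none was called by FDR and fold. For 3 genes (5.08%, against 3.14% of all genes) every MSC array was above every NP array. Acot9, a mitochondrial acyl-CoA thioesterase, read 12.88 to 13.22 in NP and 13.56, 13.72, 13.49 and 13.85 in MSC, so that every MSC array was above every NP array. Its difference was 0.55 ± 0.11 (SE), with an FDR of 0.332 in limma. Phyh, the peroxisomal enzyme that begins the breakdown of phytanic acid, read 12.39, 12.17, 12.28, 12.37 and 12.59 in NP and 12.76, 12.76, 12.82 and 12.68 in MSC, again without overlap. Its difference was 0.40 ± 0.09 (SE), with the same FDR of 0.332.

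The others were Fabp3, a fatty acid-binding protein of heart and kidney (0.39, FDR of 0.398), Acsl4, the synthetase that prefers arachidonic acid (0.33, FDR of 0.415), and Acot2, a mitochondrial thioesterase (0.27, FDR of 0.402), all from limma. Fabp3 also did not overlap between groups, with NP at 14.33 to 15.08 and MSC at 15.11 to 15.32.

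Markers of nephron segments are given as the mean deviation of each list from its mean over the arrays. Thick ascending limb (5 markers, -0.33 to -0.01 in NP and 0.01 to 0.53 in MSC) and distal convoluted tubule (3 of 4 markers passed, -0.56 to 0.16 and 0.23 to 0.36) did not overlap between groups. Of their single markers that passed, only Egf of the first list (1.37) and Calb1 of the second (1.13) did not overlap. The others of the first differed by 0.50 (Slc12a1), 0.31 (Kcnj1), 0.14 (Umod) and -0.33 (Cldn16). Those of the second differed by 0.59 (Slc12a3) and 0.03 (Trpm6). Proximal tubule (12 markers, -0.39 to 0.08 and -0.02 to 0.17), principal cell (-0.57 to 0.05 and -0.11 to 0.51) and intercalated cell markers (-0.68 to 0.24 and 0.16 to 0.57) overlapped, each with a higher mean in MSC. Podocyte markers overlapped (-0.34 to 0.38 and -0.87 to 0.22), with MSC replicate 4 the lowest. The part of segment content in the differences above was not tested.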

How the data were processed

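The authors deposited, for each array, the intensity of every spot from Agilent Feature Extraction 10.7.3.1, and normalized log2 values by probe. Per the study's methods, raw intensity was log2 transformed, normalized by cyclic loess and filtered. Here the raw mean intensity was taken without background subtraction, flagged spots were left out, and cyclic loess was run on gene spots with limma 3.58.1 in R 4.3.3. The result had a Pearson's r of 0.9999 or more with the deposited log2 values of each array.

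A probe was kept where its value exceeded 1.1 times the 95th percentile of the log2 negative controls on at least 4 arrays, which is one reading of the methods' filter. This kept 15749 of 30367 gene probes. Spots of a probe were averaged and the most variable probe stood for its gene, giving 13856 genes. MSC and NP were compared with limma, with the Benjamini-Hochberg FDR over all genes. On simulated arrays of this design with 200 of 13856 genes changed, 88% of those changed 2-fold and 97% of those changed 4-fold were called, with 8 false calls. The simulated noise was independent between genes, without shifts shared across an array. No change under 2-fold was simulated, so these shares say nothing of differences as small as those of the 33 genes.

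Given with a value on every array are the genes with an unadjusted p under 0.05, the largest difference in each role group, and genes whose probes disagree. Acsl1, Hadhb, Ucp1 and Adipoq were added after their values were seen, as were Oxct1 and other genes named with means alone. The genes and lists were chosen with earlier results of these data known. All 35 names matched those of current RefSeq records. Positions are those of the array files, on rn4. Replicates are separate kidneys per the study's methods, and the labels do not say how many animals were used. Columns of per-sample values that were passed over numbered 0. Alternatives took other intensity columns, normalizations, filters, probes, variance models and blocks, or left out arrays. Counts and medians of the role groups with other probes or without arrays were added after seeing the data.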

Additional observations from a re-analysis of the deposited data

Results flagged for a closer look

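In MSC kidneys, 1 array stood far from the other 3 for 2 genes, by the gap to its nearest neighbour as a share of the range over the 4 arrays. For Etfdh this was MSC replicate 4, the lowest, with a share of 0.873, at 13.18 against 13.25, 13.26 and 13.25. For Cpt1a it was MSC replicate 1, again the lowest, with a share of 0.943, at 12.95 against 13.14, 13.16 and 13.15. Both shares are above Dixon's critical value at 95%. Of 82 groups examined 2 passed it, where chance gives about 4.1.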

How the results depend on the processing

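The count of genes called by FDR and fold was 0 in each direction in all 25 alternatives with a test. The count of genes higher in MSC at an unadjusted p under 0.05 was 3, and 0 with scaling to the 75th percentile, with scaling to the median and with the replicate block, in which NP replicate 5 has no partner and so drops out of the comparison (without NP replicate 5 alone the count was 2). Leaving out single arrays gave 0 to 3, with 0 without MSC replicate 1 and 1 without MSC replicates 2 or 4 or NP replicates 2 or 4. The count of genes lower was 0, and 1 with array weights, with median scaling and without NP replicate 5 (leaving out single arrays gave 0 to 1). The median difference was 0.00318 to 0.0616 when single arrays were left out, -0.00219 with median scaling and -0.000645 with array weights, against the reported 0.0516. Each was closer to it than 0.0702, the SD between arrays of the genes' median deviation. That SD is larger than the median itself, so this closeness does not bear on the sign, which turned with median scaling and with array weights. Median scaling placed the median of all genes at -0.0381.

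Among the genes named by rule, the sign turned for Hadha (0.212) and Acaa1a (0.0565) with their other probes, which were chosen after seeing the data, for Etfb within the second slide (0.0195), and for Ppara with array weights (0.00691) and without the 2 MSC arrays with high fat markers (0.0197). Other genes also changed sign when arrays were left out, such as Acsl1 (from 0.232 to -0.0103) and Ppargc1a (from -0.0129 to 0.0633) without those 2 arrays. The cause was not tested. The replicate block did not rest on a pairing, since same-numbered arrays had correlations of 0.198, 0.325, -0.348 and 0.0455 between their deviations from the group means. With the block 1573 of all genes had an unadjusted p under 0.05, against 1687 without NP replicate 5 and 1627 with all arrays. Over all genes, 1104 passed that p with scaling to the 75th percentile, 844 with median scaling and 2304 with array weights, and array weights alone called any gene by FDR and fold (2, neither among the 33). Signal limits Acox2, close to the filter, and Acox3 and Acsl6, below it.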
